A study of Homo sapiens and Mus musculus with 33 samples.

Results

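The genes described here were 7 genes of the JUN and FOS families (JUN, JUNB, JUND, FOS, FOSB, FOSL1 and FOSL2), their relative ATF3, and the immediate early genes EGR1 and IER2. They were matched by symbol in the RNA tables, where all 10 were present among 35805 human and 25965 mouse rows. A histone peak was assigned to a gene when it lay in the gene interval of the deposited table or within 2 kb of it. This gave 21 of the 40266 peaks of HCT116 cells, 19 of the 30338 H3K18cr peaks of mouse colon and 16 of the 27035 H3K4me3 peaks of mouse colon. HCT116 cells come from a human colon carcinoma and grow as an epithelial line. They were kept for 18 h in DMSO as vehicle or in 5 µM MS275 (entinostat), an inhibitor of class I histone deacetylases, the enzymes that the study examines as histone decrotonylases. RNA was sequenced in 4 replicates per treatment, and H3K18cr (crotonylated lysine 18 of histone H3) and H3K18ac (the acetylated form of the same residue) were profiled by ChIP-seq in 3 libraries per mark and treatment, with 1 input library per treatment. The colon samples were epithelial cells released with EDTA from male C57BL/6 mice without treatment. They comprised 3 RNA libraries, 2 H3K18cr libraries with 2 inputs and 3 H3K4me3 libraries with 1 input, and the chromatin came from pooled colons.

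AP-1 is a family of dimeric transcription factors. JUN proteins pair with each other or with FOS proteins through a leucine zipper and bind the sequence TGACTCA. FOS, FOSB, JUNB, EGR1 and IER2 belong to the immediate early genes, which growth factors and stress switch on within minutes through MAP kinases and factors that already sit in the cell, such as SRF, ELK1 and CREB1. Their mRNAs are short-lived, and in epithelial cells they are known for following serum, wounding and tissue dissociation. These genes are compact. The interval in the human table had a median of 4160 bp, compared with 27424 bp over all protein-coding genes of GENCODE 44, and ranged from 1820 bp at JUNB to 55444 bp at ATF3. In mouse the medians were 4273 bp and 17403 bp.

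Promoter sequences from RefSeq (GRCh38.p14, 250 bases before to 50 after the start) were found for 9 of the 10 genes, ATF3 with 2 starts, and FOSL1 is named only. TGACG, the core of the site bound by CREB and ATF factors, was searched on both strands and occurred in 8 of these 9 genes, compared with 24.6% of all 35116 promoter windows. TATAAA, the sequence of the TATA element, was found in 4 genes (JUNB, FOS, FOSB and the second start of ATF3), against 11.5% of windows. At ATF3 it lay 230 bases before that start and is a match of letters only. TGACATCA, a variant of the AP-1 site, was found in JUN and ATF3, against 2.61% of windows, and TGACTCA itself in FOSL2 alone, against 4.95%. The CArG box, the site of SRF, was present in EGR1 alone, against 1.29% of windows, and CCAAT was found in 4 genes (JUN, JUNB, JUND and ATF3), against 34.6%. Matches are descriptions of the letters in these windows. The stretches below end before the first annotated exon, carry a TATA element, a CArG box or TGACATCA, and lie inside the H3K18cr and H3K18ac peak at the start of the same gene. Capitals mark the TATA element, the core TGACG on either strand, the variant AP-1 site and the CArG box. The stretches are EGR1 at chr5:138465339-138465478, FOS at chr14:75278688-75278825, FOSB at chr19:45467856-45467994 and JUNB at chr19:12791346-12791485 on the plus strand, JUN at chr1:58784049-58784187 on the minus strand, and the first start of ATF3 at chr1:212565267-212565333 on the plus strand, each written 5′ to 3′.
EGR1: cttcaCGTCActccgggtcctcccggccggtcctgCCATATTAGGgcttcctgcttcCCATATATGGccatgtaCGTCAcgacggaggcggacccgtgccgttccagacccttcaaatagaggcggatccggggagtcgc
FOS: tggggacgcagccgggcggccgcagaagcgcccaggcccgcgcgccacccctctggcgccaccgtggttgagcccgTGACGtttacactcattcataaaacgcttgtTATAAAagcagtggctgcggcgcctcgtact
FOSB: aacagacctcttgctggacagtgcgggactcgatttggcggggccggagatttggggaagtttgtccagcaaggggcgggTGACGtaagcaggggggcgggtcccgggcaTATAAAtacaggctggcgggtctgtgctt
JUNB: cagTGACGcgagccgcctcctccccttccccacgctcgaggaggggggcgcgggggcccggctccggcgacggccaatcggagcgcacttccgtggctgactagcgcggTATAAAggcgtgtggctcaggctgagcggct
JUN: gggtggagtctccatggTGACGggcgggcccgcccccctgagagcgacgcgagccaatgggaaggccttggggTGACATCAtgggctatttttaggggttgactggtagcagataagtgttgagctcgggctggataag
ATF3: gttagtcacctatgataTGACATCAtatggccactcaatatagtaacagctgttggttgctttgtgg
EGR1 carries its CArG boxes 105 and 83 bases before the start. In FOS, FOSB and JUNB the TATA element lies 33, 30 and 31 bases before the start, and in FOS and FOSB a TGACG lies 64 and 60 bases before it. GC content of the windows was 64.7% at FOS, 64% at FOSB, 69.3% at EGR1 and 77% at JUND, compared with a median of 58.7% over all windows. The first start of ATF3 was the exception in its GC content, 48%, as was its second start, 46.3%.

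The RNA tables hold raw counts, which summed to between 35608533 and 53415604 per HCT116 library and between 8166406 and 10707901 per colon library. Reads in peaks were 2236551 to 5730094 per HCT116 ChIP-seq library. In HCT116 cells 6 of 8 epithelial markers were above 1 CPM (the count scaled to library size), with summed levels of 3623 to 5163 CPM in DMSO and 4747 to 5673 CPM in MS275, and CDX1 was at 0 in every library. All 8 were above 1 CPM in colon, with a sum of 8500 to 10000 CPM. The 7 immune markers summed to 6.32 to 7.81 CPM in DMSO, 5.34 to 12.2 CPM in MS275 and 28.9 to 43.2 CPM in colon. The 7 stromal and endothelial markers summed to 8.34 to 10.7 CPM in DMSO and 17.2 to 20.3 CPM in MS275, with 2 of 7 above 1 CPM and none at 0 in every library, and their part in the RNA results was not tested. In colon this sum was 10.7 to 13.6 CPM, with Pdgfra at 0 in every library.

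In control HCT116 cells JUND, a JUN protein that most cells make without stimulation, had the highest RNA level per length of the 10 genes, 103.5 ± 12.1 CPM per kb of exon (SD, n = 4), above 97.1% of the 12541 tested genes with a known exon length. JUNB followed with 56.2 ± 6.41 CPM per kb (SD, n = 4), and each of its libraries was below the lowest JUND library. IER2, a small nuclear protein, had 51.7 ± 16.0 CPM per kb (SD, n = 4), and FOSL1 (FRA1), the FOS relative known for its raised level in invasive carcinoma cells, had 44.3 ± 9.05 CPM per kb (SD, n = 4). The ranges of JUNB, IER2 and FOSL1 overlapped, so their order was within the spread of the libraries. EGR1, a zinc finger factor, was next with 22.2 ± 7.13 CPM per kb (SD, n = 4), separate from FOSL1. FOS had 13.4 ± 6.15 CPM per kb (SD, n = 4) and overlapped EGR1 in range, although EGR1 was the higher in 4 of 4 libraries. JUN had 5.29 ± 0.866 CPM per kb (SD, n = 4) and lay below all FOS libraries. ATF3, a factor of the stress response, with 3.61 ± 0.891 CPM per kb (SD, n = 4), and FOSL2 (FRA2), with 3.57 ± 1.57 CPM per kb (SD, n = 4), could not be ordered against each other. FOSB had the lowest level, 1.35 ± 1.08 CPM per kb (SD, n = 4), above 25.8% of genes. With MS275 the order was the same except that FOSL2 stood above ATF3, and FOSL1 now overlapped EGR1 in range, as FOS did JUN. Lengths are those of all annotated exons joined, and the start of the deposited interval differed from GENCODE by up to 279 bp in human (JUN).

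**Figure D1:**
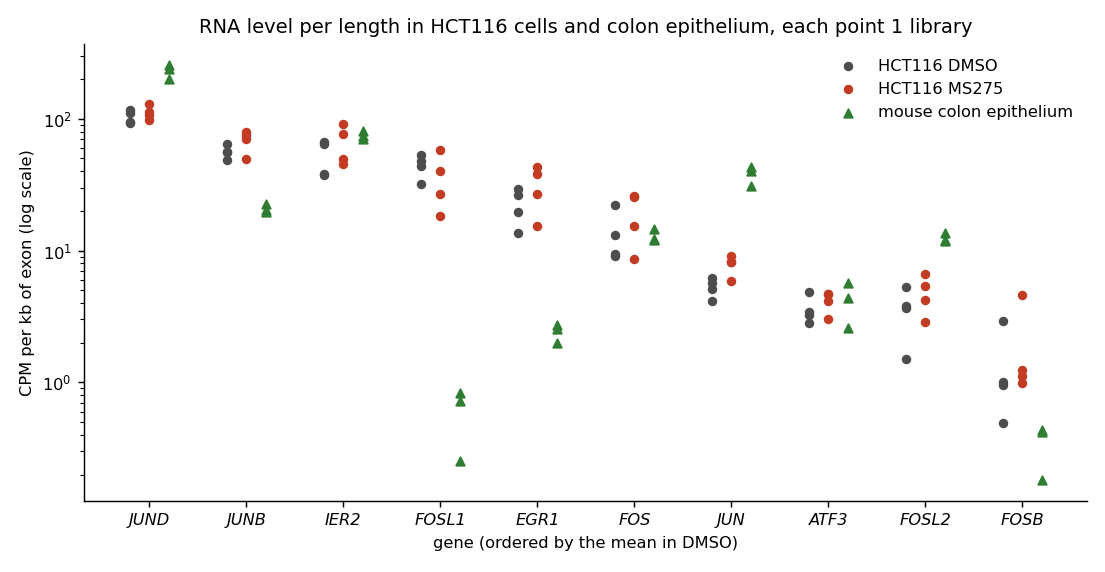
RNA level per length (CPM per kb of exon, log scale) of the 10 genes, each point 1 library, for HCT116 cells in DMSO (4, grey), in MS275 (4, red) and mouse colon epithelium (3, green triangles). JUND was the highest gene in all 3 groups. In colon libraries JUNB, FOSL1, EGR1 and FOSB were lower and JUND, JUN and FOSL2 higher than in every HCT116 library, while IER2, FOS and ATF3 overlapped. Values of the cell line and of colon were normalised separately and differ in species.

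The treatment comparison asked which of these genes changed their RNA when class I deacetylases were inhibited. The estimate was positive for 9 of the 10 genes, with FOSL1 as the exception. The median log2 change was 0.39 over the 10 genes, against 0.01 over all 14961 genes tested, and all 10 passed the filter on low counts. In the fit without pairing (edgeR quasi-likelihood test, Benjamini-Hochberg adjustment over all genes) 0 of the 10 genes passed an adjusted p of 0.05, where 0.00668% of all genes did. The adjusted p ranged from 0.579 (JUN) to 0.965 (JUND), and JUN alone had an unadjusted p under 0.05, 0.0182 in edgeR. Over all genes 6.6% had one, so 1 of 10 is near that share. DESeq2 called 0 of the 10 genes as well, where it called 0.936% of genes, and the smallest adjusted p among the 10 was 0.316. The 4 DMSO and the 4 MS275 libraries overlapped for each of the 10 genes, compared with 5.37% of all genes for which they did not.

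Libraries of the same treatment differed widely at some of these genes. EGR1 differed 2.19-fold between its highest and lowest DMSO library and 2.77-fold between its highest and lowest MS275 library, against a fitted change of 1.39-fold (95% interval 0.847 to 2.28) between treatments. Libraries with the same number tended to deviate together across genes, though number 2 did not stand out, so the number was also fitted as a block. Neither the labels nor the paper state such pairs for the RNA libraries. With the block (edgeR, same adjustment) JUN, FOSL2, EGR1 and IER2 rose and FOSL1 fell, which is 4 of 10 genes higher, where 7.83% of all genes were called higher, and 1 of 10 lower, where 6.55% were called lower. FOSL1 lay at the threshold, with an adjusted p of 0.04999. JUNB lay just above it, with an adjusted p of 0.0503. Higher levels in 4 of 4 pairs were seen for 6 of the 10 genes (JUN, JUNB, JUND, FOSL2, EGR1 and IER2), against 19.2% of all genes.

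**Figure D2:**
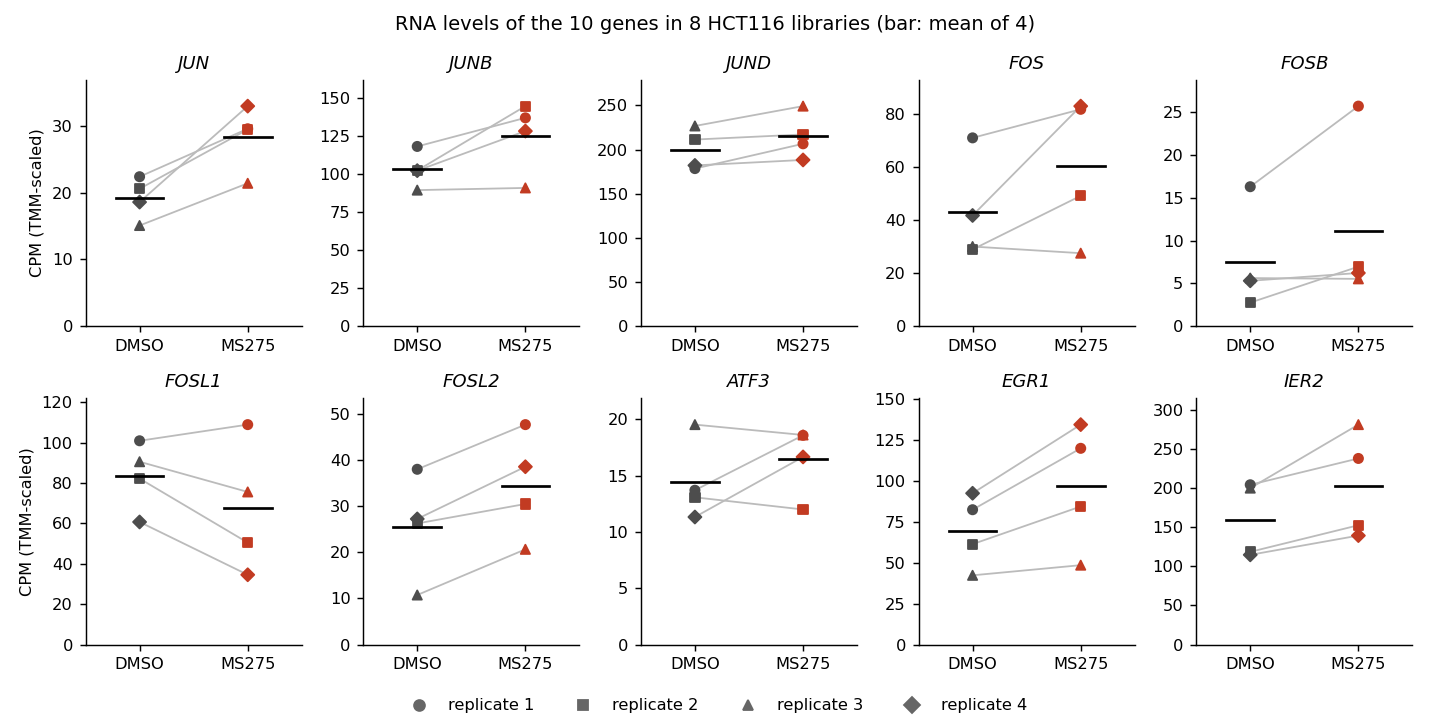
RNA level in TMM-scaled CPM of each of the 10 genes in the 8 HCT116 libraries. Points of one shape are libraries with the same replicate number, joined by a grey line, and black bars are the means of 4 libraries. For EGR1 the line rises in 4 of 4 pairs, while the pairs differ from each other by more than the treatments do.

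Among the JUN family, JUN moved most. In DMSO it had 22.4, 20.6, 15.1 and 18.6 CPM in replicates 1 to 4, and in MS275 29.6, 29.5, 21.4 and 33.0 CPM. The groups overlapped only through replicate 3 of MS275, which was the lowest MS275 library as replicate 3 was the lowest DMSO library. The blocked log2 change was 0.56 (SE 0.12, n = 4 pairs), or 1.48-fold, with an edgeR adjusted p of 0.0099, and 0.57 (SE 0.20) without the block. JUNB had 118.0, 102.2, 89.3 and 102.1 CPM in DMSO and 136.8, 144.5, 90.7 and 128.1 CPM in MS275. Its blocked log2 change was 0.27 (SE 0.08, n = 4 pairs), and replicate 3, with a log2 difference of 0.02, was nearly level. JUND had 178.4 to 226.7 CPM in DMSO and 188.2 to 249.2 CPM in MS275, and its blocked log2 change of 0.11 (SE 0.06, n = 4 pairs, edgeR adjusted p = 0.282) had a 95% interval of -0.03 to 0.25.

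Of the FOS family, FOSL2 passed the threshold upward and FOSL1 downward in the fit with the block. FOSL2 had 38.0, 26.2, 10.7 and 27.2 CPM in DMSO and 47.7, 30.5, 20.6 and 38.5 CPM in MS275. Replicate 3 was the lowest library of both treatments, with the largest log2 difference, 0.94. The blocked log2 change was 0.49 (SE 0.13, n = 4 pairs, edgeR adjusted p = 0.026). FOSL1 had 100.9, 82.2, 90.5 and 60.7 CPM in DMSO and 108.9, 50.5, 75.6 and 34.5 CPM in MS275. It was lower in 3 pairs and higher in pair 1, and replicate 4 was the lowest library of both treatments. Its blocked log2 change was -0.41 (SE 0.13, n = 4 pairs), or 0.751-fold. FOS had 70.8, 28.8, 29.9 and 41.6 CPM in DMSO and 81.6, 49.0, 27.4 and 82.8 CPM in MS275. Pairs 2 and 4 gave log2 differences of 0.77 and 0.99 for FOS, whereas pair 3 gave -0.13, and the blocked change of 0.47 (SE 0.15) had an edgeR adjusted p of 0.0597. FOSB had 16.3, 2.74, 5.61 and 5.29 CPM in DMSO and 25.7, 6.94, 5.52 and 6.21 CPM in MS275. Replicate 1 stood above all others of FOSB in both treatments, and the blocked change of 0.55 (SE 0.23) had an edgeR adjusted p of 0.135.

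EGR1 had 82.5, 61.4, 42.3 and 92.5 CPM in DMSO and 120.0, 84.4, 48.5 and 134.5 CPM in MS275. Each number kept its rank in both treatments, with replicate 3 the lowest and replicate 4 the highest. The blocked log2 change was 0.44 (SE 0.08, n = 4 pairs), or 1.35-fold (95% interval 1.19 to 1.54), with an edgeR adjusted p of 0.0053, the smallest of the 10 genes. IER2 had 204.0, 118.3, 199.7 and 114.5 CPM in DMSO and 237.6, 152.3, 280.8 and 139.1 CPM in MS275. Replicates 1 and 3 were the higher libraries of IER2 in both treatments. The blocked log2 change of IER2 was 0.34 (SE 0.07, n = 4 pairs, edgeR adjusted p = 0.00666). ATF3 had 13.7, 13.1, 19.5 and 11.3 CPM in DMSO and 18.6, 12, 18.6 and 16.7 CPM in MS275. It was higher in 2 of 4 pairs, and its blocked change of 0.20 (SE 0.16) had an edgeR adjusted p of 0.45. In these bulk samples a change in the number of cells that express a gene and a change in RNA per cell, in either direction, cannot be told apart.

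With the block, 3 of the 5 genes no longer passed in at least 1 fit that left out a pair. When each numbered pair was left out in turn, EGR1 and IER2 passed the threshold in 4 of 4 fits (edgeR adjusted p 0.0013 to 0.0479 for EGR1 and 0.0148 to 0.0468 for IER2). JUN no longer passed without pair 4 (edgeR adjusted p = 0.0935). FOSL2 no longer passed without pair 1 (0.0694) or pair 4 (0.0954), and FOSL1 without pair 2 (0.23) or pair 4 (0.232), all in edgeR. The log2 changes in these fits were 0.47 for JUN, 0.55 and 0.49 for FOSL2, and -0.33 and -0.28 for FOSL1. Without pair 3 the count was 8 of 10, as JUNB (0.0107), FOS (0.00536) and FOSB (0.0397) passed as well, and without pair 4 it was 2 of 10. The calls over all genes moved too, from 2151 with all pairs to 2584 without pair 3 and 1037 without pair 4.

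**Figure D3:**
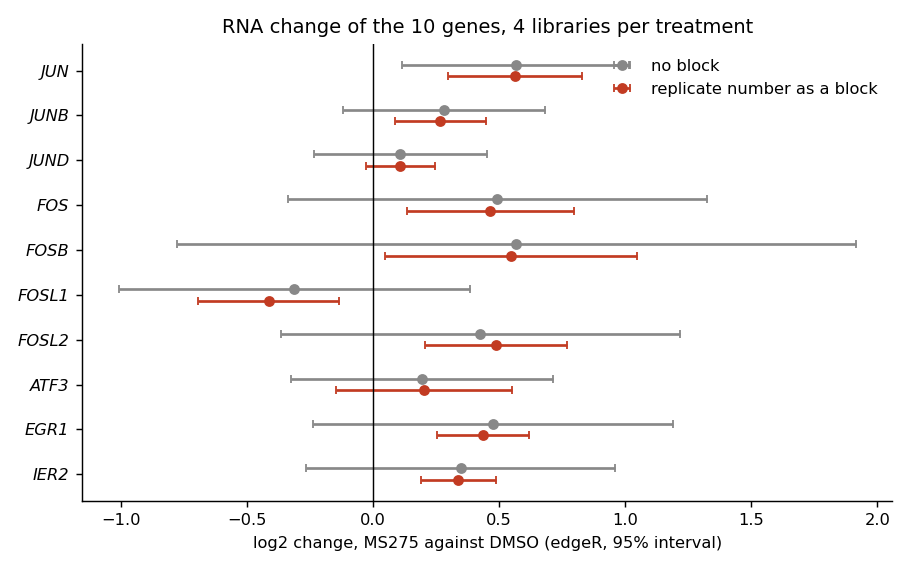
Log2 change in RNA with MS275 against DMSO (horizontal axis) for the 10 genes, with 95% intervals from edgeR, from the unpaired fit (grey) and the fit that blocks on replicate number (red). The points differ little between the fits, while the intervals with the block are narrower, for EGR1 0.26 to 0.62 in place of -0.24 to 1.19.

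Related genes were set beside the 10 in 3 lists. Of 30 other immediate early genes 29 were measured above the filter, and their median log2 change was 0.27 without the block, with 22 positive. Without the block 0 of the 29 passed the threshold in edgeR, and 3 had an unadjusted p under 0.05, against 6.6% of all genes. With the block 8 were called higher and 2 lower, against 7.83% and 6.55% of all genes. The largest rises were those of CCN2 (CTGF in the table), a secreted matrix protein, NR4A1, an orphan nuclear receptor, and DUSP5, a nuclear phosphatase of ERK kinases. CCN2 had 1.99, 2.16, 3.56 and 2.29 CPM in DMSO and 11.8, 10.3, 7.37 and 5.35 CPM in MS275, without overlap, and a blocked log2 change of 1.77 (SE 0.31, n = 4 pairs, edgeR adjusted p = 0.00353). NR4A1 changed by 0.54 (SE 0.17, higher in 3 of 4 pairs, edgeR adjusted p = 0.0468), and DUSP5 by 0.34 (SE 0.07, 4 of 4 pairs, edgeR adjusted p = 0.00776). The phosphatase DUSP2 fell by 0.56 on the log2 scale (SE 0.15, lower in 4 of 4 pairs, edgeR adjusted p = 0.0229), and PHLDA1 fell by 0.25 (SE 0.06, lower in 4 of 4 pairs, edgeR adjusted p = 0.0143).

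Of 28 partners and upstream regulators of AP-1, 25 were tested, with a median log2 change of -0.01 without the block, 0 called in edgeR and 0 at an unadjusted p under 0.05. With the block 2 were called higher and 0 lower, against 7.83% and 6.55% of all genes. The share of this list called higher was thus near that of all genes. At an unadjusted p under 0.05 it was 5, for which the share over all genes is not given here. Those called were MRTFA (MKL1 in the table), a coactivator of SRF, which changed by 0.38 (SE 0.12, 4 of 4 pairs, edgeR adjusted p = 0.0498), and ELK3, an ETS factor that binds beside SRF, which changed by 0.33 (SE 0.09, 4 of 4 pairs, edgeR adjusted p = 0.03). Among 20 genes known as targets of AP-1, 16 were tested. Their median log2 change was 0.14 without the block, where 0 passed in edgeR and 3 had an unadjusted p under 0.05, against 6.6% of all genes. With the block 5 were called higher and 1 lower, against 7.83% and 6.55% of all genes, so the share called lower was near that of all genes. SPP1 (osteopontin) rose by 2.31 (SE 0.70, 4 of 4 pairs, edgeR adjusted p = 0.0445) from a mean of 1.16 ± 0.895 CPM (SD, n = 4), with 1 DMSO library at 0. PLAU, the urokinase-type plasminogen activator, fell by 0.56 (SE 0.09, lower in 4 of 4 pairs, edgeR adjusted p = 0.00178), from 86.5 ± 18.3 to 58.3 ± 9.68 CPM (SD, n = 4 each).

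The genes whose log2 CPM over the 8 libraries was most like that of a member were found among 11082 genes with a mean of at least 5 CPM. For JUN they were MFAP1, ADAM19 and ACSL3 (Pearson r of 0.975, 0.975 and 0.966), for FOS MYH9, GSE1 and FKBP15 (0.975, 0.962 and 0.960), and for EGR1 URB1 and DYNC1H1 (0.987 and 0.986). After the mean of each numbered pair was subtracted they were FNIP2, YLPM1 and XYLT1 for JUN (0.998, 0.998 and 0.997), KIAA1671, TANC1 and ANKS6 for FOS (0.996, 0.992 and 0.991), and CPT1A, TRIO and MSANTD3-TMEFF1 for EGR1 (0.999, 0.998 and 0.997). The genes named differed between the searches. These values describe 8 libraries in 4 pairs, and the highest of so many values is high by selection.

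All 10 genes had a peak of H3K18cr and H3K18ac over their start in HCT116 cells. The authors called 1 list of peaks for the libraries of both marks, and the values are log2 reads scaled to the largest library, given here as scaled reads. A start peak is one within 1 kb of a protein-coding TSS of the gene itself. ATF3 had a second start peak at an internal TSS, which makes 11 start peaks, and the other 10 peaks lay in or beside FOS (1), FOSB (2), FOSL1 (1), FOSL2 (1) and ATF3 (5). The start peaks were broad, with a median of 7650 bp against 2550 bp over the 12833 peaks within 1 kb of any TSS. The peak of JUN covered chr1:58782301-58787550 of GRCh38, that of FOS chr14:75273151-75280800, that of EGR1 chr5:138462451-138466950 and that of IER2 chr19:13148551-13158300, each covering the start of its gene. The peak over the FOSL1 start, chr11:65895301-65921100, was 25800 bp wide and also held the starts of DRAP1 and C11orf68, and that of IER2 held the start of STX10, so their reads do not belong to these genes alone. Enrichment over input in DMSO, as a log2 ratio, had a median over the 11 start peaks of 2.69 for H3K18cr and 2.82 for H3K18ac.

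The scaled reads of both marks were lower at nearly all starts of these genes in cells treated with MS275. They give the share of a library's reads that falls in a peak, with no external standard, so a lower value can come from less of the mark at the peak or from more of it elsewhere in the genome, and these cannot be told apart here. Of the 11 start peaks, 9 passed the threshold downward for H3K18cr (limma on the deposited log2 values, adjusted over 39011 peaks), where 37.6% of all TSS peaks and 15.0% of all peaks did. For H3K18ac it was 10 of 11, where 33.1% of TSS peaks and 12.5% of all peaks did. The median log2 change over the start peaks was -0.86 for H3K18cr and -1.03 for H3K18ac, against -0.54 and -0.60 over all TSS peaks. Among the 2379 TSS peaks at least 4200 bp wide, the width of the narrowest of the 11, 40.2% were called lower for H3K18cr and 32.6% for H3K18ac, with median changes of -0.55 and -0.59. The 3 MS275 libraries lay below the 3 DMSO libraries at 10 of 11 start peaks for each mark, compared with 62.0% of TSS peaks for H3K18cr and 50.1% for H3K18ac. The exceptions were JUN for H3K18cr and the first start of ATF3 for H3K18ac. The 2 input libraries, 1 per treatment, differed by log2 values of -0.50 to 0.26 at these peaks, with a median of -0.13.

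At FOS, H3K18cr was 938.0, 1013 and 1029 scaled reads in DMSO and 355.4, 395.1 and 594.8 in MS275, replicates 1 to 3. H3K18ac at FOS was 794.7, 1172 and 1198 in DMSO and 451.8, 428.9 and 379.3 in MS275. Every treated library was below every control library for both marks, and the log2 change was -1.18 (SE 0.22, limma adjusted p = 0.0163) for H3K18cr and -1.31 (SE 0.26, limma adjusted p = 0.00374) for H3K18ac. FOSB, which had the lowest RNA level, had start-peak signals of like size to those of FOS. They were 945.0, 974.5 and 886.3 scaled reads of H3K18cr in DMSO against 316.0, 308.7 and 534.5 in MS275, and 646.4, 927.5 and 1210 of H3K18ac against 429.7, 395.9 and 382.5. The change at FOSB was -1.32 (SE 0.23, limma adjusted p = 0.0163) for H3K18cr, the largest fall of the 11 peaks in that mark, and -1.16 (SE 0.26, limma adjusted p = 0.0059) for H3K18ac.

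At EGR1, H3K18cr was 529.0, 548.7 and 572.3 scaled reads in DMSO and 205.8, 219.5 and 367.6 in MS275, and H3K18ac 487.9, 656.1 and 852.2 against 325.9, 280.4 and 313.3. The log2 change was -1.11 (SE 0.23, limma adjusted p = 0.017) and -1.08 (SE 0.26, limma adjusted p = 0.00801). The treated libraries thus had a smaller share of their reads at the EGR1 start in both marks. IER2 had 1598, 1481 and 1400 scaled reads of H3K18cr in DMSO and 678.2, 596.2 and 921.7 in MS275, a log2 change of -1.05 (SE 0.20, limma adjusted p = 0.0163). Its H3K18ac was 1090, 1608 and 2278 against 967.3, 747.3 and 642.4, a change of -1.03 (SE 0.28, limma adjusted p = 0.0134). Replicate 3 kept the most H3K18cr of the MS275 libraries at FOS, FOSB, EGR1 and IER2, and replicate 1 had the lowest H3K18ac of the DMSO libraries.

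JUN was the start where the marks differed most in size. H3K18cr was 488.0, 462.7 and 702.2 scaled reads in DMSO and 266.6, 262.0 and 488.2 in MS275, so the groups met in replicate 3, and the log2 change of -0.74 (SE 0.27) had a limma adjusted p of 0.0849. All 3 numbered pairs were lower there (log2 differences of -0.87, -0.82 and -0.52), and blocking on the number gave a limma adjusted p of 0.0262. H3K18ac at JUN was 601.1, 837.1 and 817.4 against 349.3, 290.3 and 316.5, without overlap, a log2 change of -1.23 (SE 0.26, limma adjusted p = 0.00433). The difference between the marks in this change was 0.49 on the log2 scale (95% interval -0.26 to 1.23), with a limma adjusted p of 0.9999. JUND, JUNB, FOSL1 and FOSL2 passed the threshold in both marks, with log2 changes from -1.13 (JUND) to -0.75 (JUNB) in H3K18cr and from -1.27 (JUND) to -0.87 (JUNB) in H3K18ac. With the block JUNB no longer passed in H3K18ac (limma adjusted p 0.0556 in place of 0.0284).

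At ATF3 the peak over the internal start was called in both marks and that over the first start in neither. The difference between these peaks was not tested. At the first start, chr1:212564101-212568300, H3K18cr was 175.0, 152.9 and 151.6 scaled reads in DMSO and 135.0, 136.0 and 127.7 in MS275, and H3K18ac 114.3, 149.3 and 159.6 against 164.9, 151.8 and 119.5. Their log2 changes were -0.26 (SE 0.17, limma adjusted p = 0.342) and 0.04 (SE 0.26, limma adjusted p = 0.948). With TMM over the peaks these changes were -0.025 and 0.29. This peak had the lowest ChIP to input ratio of the 11 in DMSO, a log2 of 1.14 for H3K18cr and 0.95 for H3K18ac. The peak over the internal start, chr1:212604151-212611950, holds a TSS of GENCODE and not the second RefSeq start of ATF3, which lies outside it. Its changes were -0.78 (SE 0.20, limma adjusted p = 0.0263) and -0.93 (SE 0.26, limma adjusted p = 0.0174). Of the other 10 peaks 1 was called lower in each mark (FOSL1 peak 1, a TSS peak that holds the starts of CCDC85B and FIBP). Under the deposited scaling their median changes were -0.16 for H3K18cr and -0.27 for H3K18ac, with ranges of -0.81 to 0.48 and -0.95 to 0.49. These values depend on the scaling, and with TMM over the peaks the ranges were -0.57 to 0.70 and -0.70 to 0.70. Of the 9 peaks away from any TSS limma called 0 in either mark, where 3.97% (H3K18cr) and 2.43% (H3K18ac) of all such peaks were called lower. At an unadjusted p under 0.05 limma had 3 of the 9 for H3K18cr and 2 for H3K18ac. Over all peaks, TSS peaks included, 11810 of 39011 and 10050 of 39065 had one. The edgeR fit, which was scaled by TMM, called 1 of the 9 higher for H3K18cr and 2 lower for H3K18ac. It called 5445 and 8561 of all peaks in these marks. A peak inside ATF3, chr1:212584201-212586300, went upward in H3K18cr, with 44, 45.04 and 52.6 scaled reads in DMSO and 72.0, 56.6 and 68.7 in MS275. The groups did not overlap, and the log2 change was 0.48 (95% interval 0.07 to 0.88, limma adjusted p = 0.104). With edgeR on the recovered reads, scaled by TMM, its log2 change was 0.755 and it was called higher (adjusted p = 0.0134). It was the only one of the 11 peaks called by edgeR that went upward. Its input was 35.2 scaled reads in DMSO and 25.5 in MS275.

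**Figure D4:**
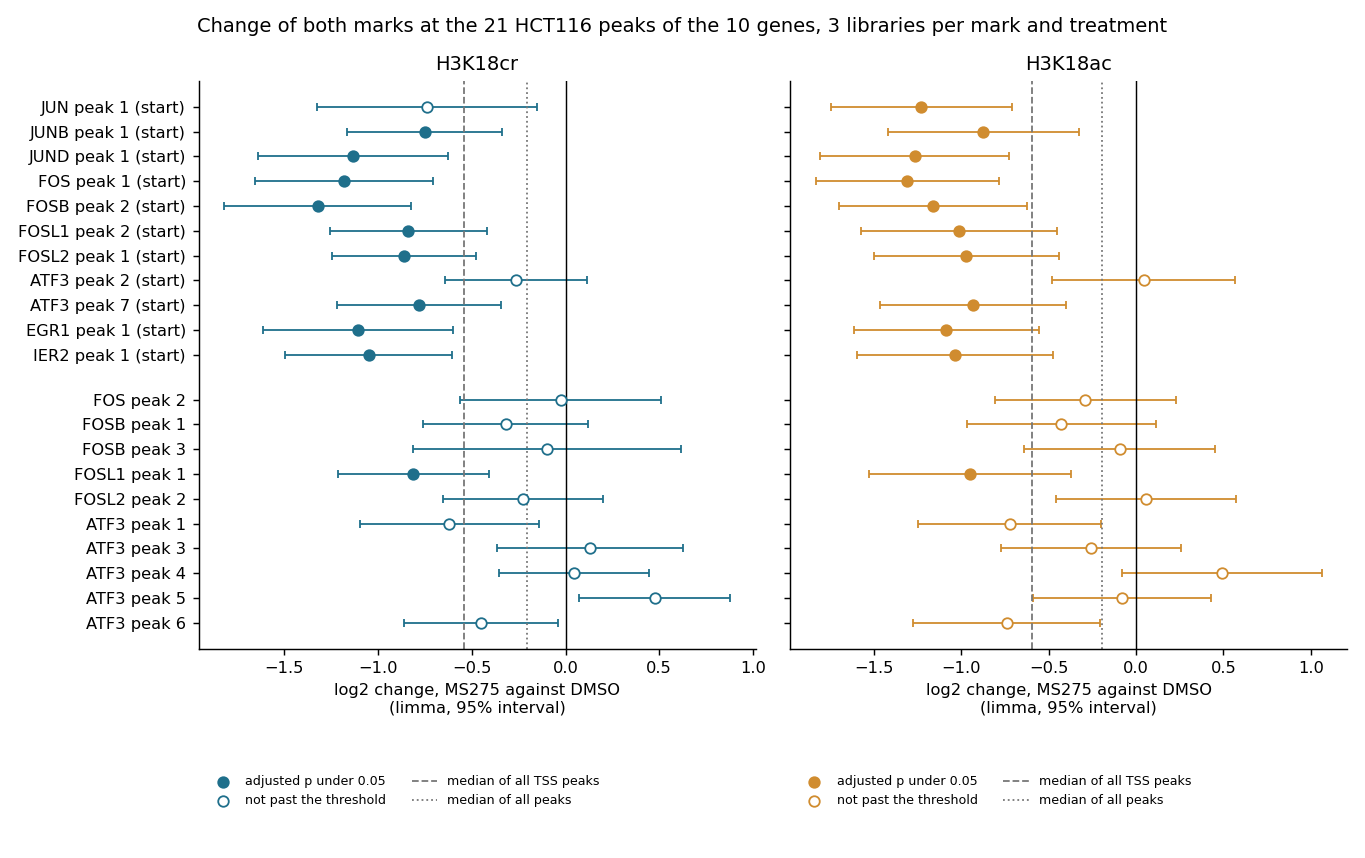
Log2 change with MS275 against DMSO (horizontal axis, 95% intervals from limma) of H3K18cr (left) and H3K18ac (right) at the 21 HCT116 peaks of the 10 genes, with start peaks on top. Filled points passed an adjusted p of 0.05, and the dashed and dotted lines are the medians of all TSS peaks and of all peaks. Of the start peaks 9 (H3K18cr) and 10 (H3K18ac) are filled, and the first start of ATF3 is open in both panels.

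The change did not differ between the marks beyond the error at any of the 21 peaks. The interaction of mark and treatment called 0 of 21 peaks (limma, 12 libraries), where 0.0% of 39080 peaks were called, and at an unadjusted p under 0.05 it was 0 of 21 and 992 of all peaks. Over the start peaks the difference, H3K18cr minus H3K18ac, ranged from -0.31 to 0.49, and the 95% intervals reached from -0.92 to 1.23, so differences of that size were not excluded.

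These calls depended on the scaling, on the test and on which replicates were included. Under the deposited scaling the total in peaks is free to differ between libraries, and scaled reads in all peaks were 4946115 to 5730094 for H3K18cr in DMSO and 3902023 to 4338122 in MS275. For H3K18ac they were 4462392 to 6594160 in DMSO and 3612598 to 4531232 in MS275, so the groups overlapped in that mark. Scaling by TMM over the peaks raised the median change of all peaks by 0.24 for H3K18cr and 0.25 for H3K18ac, to 0.03 and 0.05. Relative to that, the start peaks were still lower, with medians of -0.62 and -0.79 against -0.30 and -0.34 over all TSS peaks. With TMM 10 of 11 start peaks remained past the threshold for H3K18ac, where 25.1% of TSS peaks were called. For H3K18cr 0 of 11 passed in limma, where 0.0% of TSS peaks did. In that fit 9 of 11 had an unadjusted p under 0.05, as did 10371 of all 39011 peaks. Under the same kind of scaling, TMM, edgeR on the recovered reads called 9 of 11 and 5445 of all peaks. Among all calls the share that was higher went from 2.84% to 20.2% with TMM for H3K18ac. For H3K18cr it went from 2.27% to 17.1% with edgeR, where both the test and the scaling changed. For H3K18cr the count of start peaks called was 0 without replicate 1 and 0 without replicate 2. At an unadjusted p under 0.05 in limma it was 9 and 10, where 6604 and 6766 of all peaks had one. For H3K18ac the count was 0 without replicate 2 and 2 without replicate 3. Unadjusted it was 10 and 8, where 5470 and 5359 of all peaks had such a p. The direction was downward at 10 or 11 of 11 start peaks in each of these fits. For the HCT116 ChIP-seq replicates the labels do not state separate cultures, so their p-values measure the spread between these samples, which may be technical.

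In mouse colon epithelium, with no treatment to compare, Jund again had the highest RNA level per length, 231.3 ± 29.1 CPM per kb (SD, n = 3), above 99.1% of the 14961 genes with a count and a known exon length. Its 3 libraries had 428.3, 396.3 and 332.9 CPM. Ier2 followed with 75.3 ± 5.598 CPM per kb and 123.8, 106.9 and 113.3 CPM, and Jun with 38.0 ± 6.36 CPM per kb and 137.0, 128.2 and 98.3 CPM (SD, n = 3 each). The ranges of Jund, Ier2, Jun and Junb (20.7 ± 1.48 CPM per kb) did not overlap, so this order held in 3 of 3 libraries. Fos, with 12.9 ± 1.363 CPM per kb, and Fosl2, with 12.4 ± 0.966 CPM per kb, overlapped (SD, n = 3 each). Fos had 34.04, 28.1 and 29.0 CPM in the 3 libraries, and Junb 44.9, 46.4 and 51.4 CPM. Atf3 (4.18 ± 1.53 CPM per kb) overlapped Egr1 (2.40 ± 0.378 CPM per kb), which had 12.1, 8.87 and 11.3 CPM. Fosl1 and Fosb closed the order with 0.601 ± 0.305 and 0.344 ± 0.141 CPM per kb (SD, n = 3 each), on 5 to 18 counts per library for Fosl1 and 11 to 28 for Fosb, where counting error is large. Set side by side with control HCT116 cells, FOSL1 was the fourth gene of the order in the carcinoma line and the ninth in colon, and JUN the seventh and the third. The 2 tables were normalised separately and differ in species and tissue, so no test was made.

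H3K18cr peaks in colon covered the table's start of all 10 genes. The start peaks (11 in all, with 2 at Atf3) had a median log2 enrichment over input of 1.66 in replicate 1 and 2.07 in replicate 2, against 1.358 and 1.68 over the 11435 TSS peaks. The highest ratios were at Fosl2, 2.22 and 2.49 in the 2 replicates, Jund, 2.02 and 2.52, and Jun, 1.88 and 2.46. Their mean ratios lay above those of 98.4%, 97.2% and 95.5% of TSS peaks. The Jun peak, chr4:95049001-95054250 of GRCm38, had 465.9 and 810.6 scaled reads against 126.0 and 146.5 in the inputs. The lowest mean ratios were at Fosl1, 1.22 and 1.49, and Fosb, 1.10 and 1.76, although in replicate 2 Egr1 (1.68) and the Atf3 peak over the start (1.68) were below Fosb. These start peaks were broad too, with a median of 4200 bp against 1650 bp over TSS peaks. With 2 libraries no test was made.

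H3K4me3, a mark of active promoters, was present at every start as well, with a median log2 ratio over the 11 start peaks of 2.11, 2.88 and 3.23 in replicates 1 to 3, against 1.77, 2.50 and 2.88 over the 14457 TSS peaks. Replicate 1 had the lowest ratio and replicate 3 the highest at 10 of the 11 start peaks. Ier2 had the highest ratio, 2.87, 3.57 and 4.09, above that of 96.9% of TSS peaks, followed by Jun with 2.50, 3.32 and 3.81. Egr1 had 1.85, 2.88 and 3.23, and Fos 2.11, 2.68 and 3.15. The lowest of the 10 genes by its highest peak was Atf3, with 1.67, 2.39 and 2.62. At Jund the H3K4me3 peak began 262 bp downstream of the start in the table, whose start lay 1210 bp before the one in GENCODE M21. Fosl1, at 5 to 18 RNA counts per library, still had ratios of 1.94, 2.69 and 3.00.

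**Figure D5:**
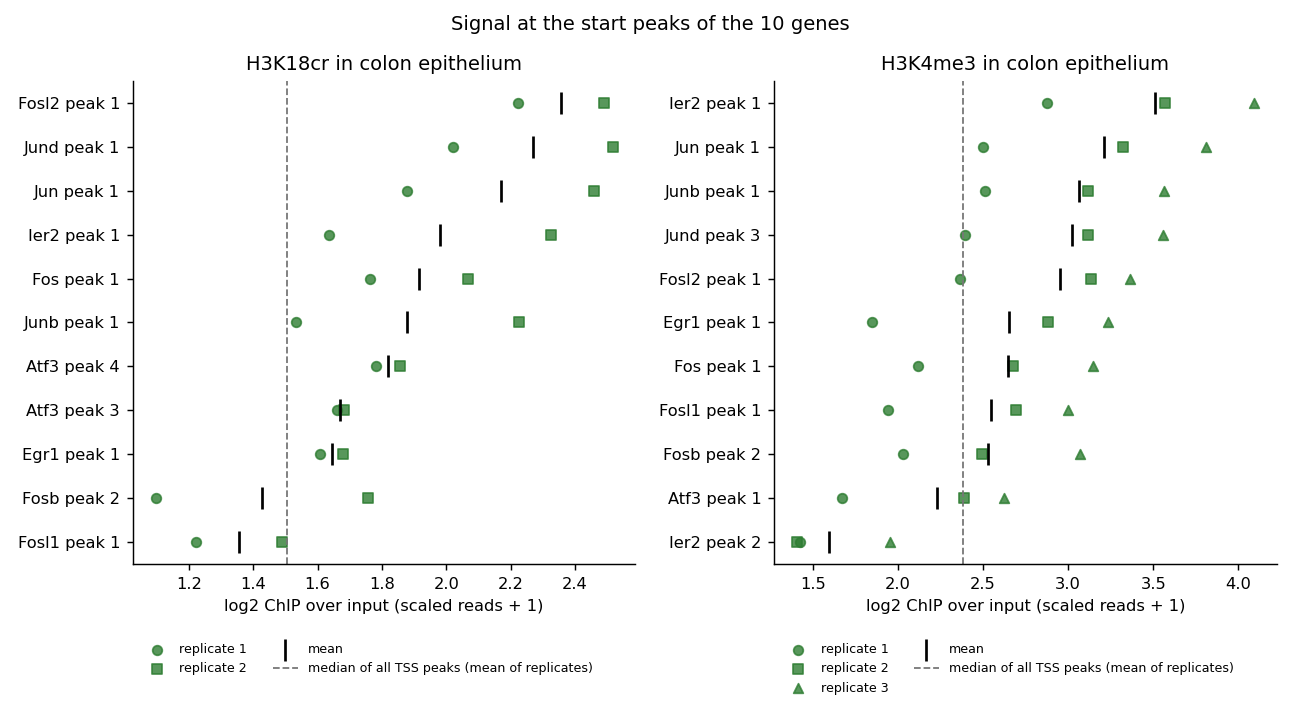
Log2 ratio of ChIP to input (horizontal axis, scaled reads plus 1) at the start peaks of the 10 genes in mouse colon epithelium for H3K18cr (left, 2 libraries) and H3K4me3 (right, 3 libraries). Each symbol is 1 library, black bars are means, and the dashed line is the median over all TSS peaks. Fosl2, Jund and Jun lead in H3K18cr and Ier2 and Jun in H3K4me3, and the means of Fosl1 and Fosb are the lowest in H3K18cr.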

How the data were processed

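RNA was measured in 8 HCT116 and 3 colon libraries, and histone marks in 22 ChIP-seq and input libraries. The authors deposited RNA counts per gene, without normalization. The paper states HiSat2 and SEQMONK for mouse, while the submitters' processing notes list Trim Galore 0.4.2, TopHat2 2.0.12 and Bowtie2 2.2.5; whether counting used strand is not given in the sources used here, so overlapping genes cannot be told apart. The colon ChIP-seq tables hold the signal the authors deposited, read counts scaled to the largest library, and the HCT116 table holds log2 values of such reads with 0.9 in place of 0, as deposited. Reads were mapped to GRCm38 or GRCh38 and MACS peaks called in SEQMONK as 1 list per table. Whole reads were recovered for 100% of values.

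Genes were tested with edgeR 4.0.16 (TMM, filterByExpr), with DESeq2 1.42.0 as an alternative. Peaks averaging 10 reads or more were tested with limma 3.58.1 (R 4.3.3), with edgeR and its TMM scaling as an alternative. All were adjusted by Benjamini-Hochberg. Only the unpaired edgeR fit of genes and the unpaired limma fit of peaks were tried on simulated data. Fits with the block, of peaks with TMM or edgeR, of the interaction and with DESeq2 were not. The prior count for log2 CPM was 2 and the pseudocount for ratios 1 read. TSS were taken from GENCODE. In RNA, same-numbered libraries correlated in their deviations from the group means at 0.226, 0.151, 0.433 and 0.460, so the numbers were treated as pairs, which neither the labels nor the paper state. DMSO 2 with MS275 4 (0.239) and DMSO 4 with MS275 2 (0.219) exceeded the value of pair 2. The 10 genes, the 3 further lists and the markers were chosen with earlier results of these data known. Genes named were the 10, up to 3 rises and 3 falls of each list, and the 3 genes most like JUN, FOS and EGR1, of which a few are not reported here. Plots were made with matplotlib 3.10.9 in Python 3.11.15.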

Additional observations from a re-analysis of the deposited data

Results flagged for a closer look

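FOSB in MS275 had 1 library far from the others. Replicate 1 had 25.7 CPM and the other 3 had 5.52 to 6.94 CPM, so the gap was 0.929 of the whole range of the 4 libraries, above Dixon's 95% critical value for 4 samples. Replicate 1 was also the highest FOSB library in DMSO, with 16.3 CPM. This was the only group past that value among 20 groups examined (10 genes in 2 treatments), and chance flags about 1 in 20 groups.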

How the results depend on the processing

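The median RNA change of the 10 genes stayed positive under every alternative run (0.23 to 0.53). None of the 10 was called with DESeq2, RLE size factors, no filter on low counts or without any 1 library, and 5 were called with the replicate block. Without 1 pair the blocked count was 2 to 8, while 968 to 2584 of all genes were called. FOSB ranged from -0.27 (without MS275 replicate 1) to 1.29 when 1 library was left out. Other unpaired RNA changes also moved by over 1.5 times without 1 library, among them FOSL2 (0.17 without DMSO 3), FOS (0.85 without DMSO 1), EGR1 (0.27 without MS275 4), IER2 (0.15 without MS275 3) and FOSL1 (-0.09 without MS275 4), as did the smaller ones of ATF3 and JUND. Blocked changes did so for genes not called, JUNB (0.18) and FOSB (0.29) without pair 2, FOS (0.28) without pair 4 and ATF3 (0.08) without pair 4. Over all genes, 1 was called without the block, 2151 with it, 140 by DESeq2 and 13 without the filter. For H3K18cr, peaks of the 10 genes called numbered 0 with TMM in limma (start peaks 0) against 10 (start peaks 9). They numbered 11 (start peaks 9) with edgeR, also scaled by TMM, and 0 to 12 (start peaks 0 to 10) without 1 replicate. For H3K18ac they numbered 0 to 14 (start peaks 0 to 10) without 1 replicate against 11. The cause was not tested. ATF3 peak 2 in H3K18ac ranged from -0.20 (without replicate 1) to 0.28, and H3K18ac at JUNB, FOSL1 and IER2 went to -0.54, -0.62 and -0.64 without replicate 3. Over all peaks, calls for H3K18cr went from 5987 to 0 with TMM in limma and to 0, 44 and 10215 without replicates 1, 2 and 3. For H3K18ac they went from 5008 to 4499 with TMM in limma and to 8561 with edgeR, also scaled by TMM. Without replicates 1, 2 and 3 they were 10674, 9 and 308. ChIP-seq libraries with the same number did not deviate together throughout (correlations 0.113, 0.0799 and 0.248 for H3K18cr, -0.206, 0.0548 and -0.134 for H3K18ac). Blocking on the number gave 12 called peaks for H3K18cr (JUN and ATF3 peak 1 added) and 10 for H3K18ac (JUNB lost), and without 1 pair 3 to 12 and 0 to 14. Colon medians moved by less than the spread between replicates. The ChIP-seq fits that left out a pair with the block, and the counts of start peaks alone, were chosen after seeing the data. Precision at single ChIP-seq peaks is limited by 3 libraries per arm and 1 input per treatment.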
